A study of Mus musculus with 15 samples.

Results

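Levels of 10 genes that mark white adipocytes were followed in the uteri of CD-1 mice, which are outbred and had been ovariectomized. The genes were Adipoq, Cfd, Cidec, Retn, Lep, Fabp4, Lpl, Cd36, Pck1 and Pparg, which were 10 of the 27647 gene names on the array. They were chosen by name, through the RefSeq accession or symbol of 15 probes, a rule that uses no measured value, although the list was drawn up with earlier results of these data known. All 10 were among the 20305 genes tested.

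The mice received an injection of 250 ng of E2 or of E3 in 100 µl of saline, or of 100 µl of saline alone as vehicle. The labels give only the abbreviations E2 and E3, which usually stand for estradiol and estriol. The 15 one-colour arrays made 5 groups of 3: E2 24 h, E3 24 h, E2 2 h, E3 2 h and vehicle, where the hours are those between injection and collection. All groups had this operation, and no source used here gives the time at which vehicle uteri were taken. Nothing in the labels ties the 3 arrays of a group to separate animals, and p-values then measure only how these samples vary, which may be technical variation.

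A white adipocyte stores triglyceride in 1 large droplet and secretes hormones. PPARG, a nuclear receptor that binds DNA together with a retinoid X receptor, drives adipocyte formation and switches on many of the other genes followed here. Adipoq, Lep, Retn and Cfd encode secreted proteins (adiponectin, leptin, resistin and the complement protease adipsin), and Cidec encodes a droplet coat protein that promotes droplet fusion. Fabp4, Lpl, Cd36 and Pck1 handle lipid and are also used by other cells, among them endothelium and macrophages. The mouse uterus is held by a mesentery that contains fat. No source used here says whether that fat was trimmed.

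A level is the log2 processed signal minus the log2 of the array's 75th percentile, so that 0 is the 75th percentile of that array. Levels of the same probe can be compared between arrays, whereas levels of different probes cannot. The 75th percentile of the signal was between 1053 and 1854, and 63.7% to 80.3% of spots were well above background, a call made in the files. The arrays lay on 6 slides. All vehicle arrays shared 1 slide that held no other group, so for vehicle, slide and treatment cannot be told apart. The 8 smooth muscle, 8 epithelial and 8 stromal genes listed as markers of the uterine wall were all tested, among them the uterine stromal homeobox gene Hoxa11.

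The adipocyte-restricted markers differed far more between arrays of the same group than between groups. Adipoq, read by a probe on chromosome 16 (22816125 to 22816184, plus strand, build mm7), had levels of 2.11, -1.73 and 2.69 in the E2 24 h uteri and 2.54, 1.15 and 1.46 in the E3 24 h uteri. Its levels were 3.13, 0.82 and 2.87 in the E2 2 h uteri, 2.31, 3.14 and 0.02 in the E3 2 h uteri and 1.03, 3.81 and -0.65 in the vehicle uteri. The highest array was vehicle replicate 2 and the lowest was E2 24 h replicate 2, which differed 46.5-fold, and all 5 groups overlapped. Among the 3 vehicle arrays, which shared a slide and a scan day, Adipoq differed 22.0-fold.

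**Figure D1:**
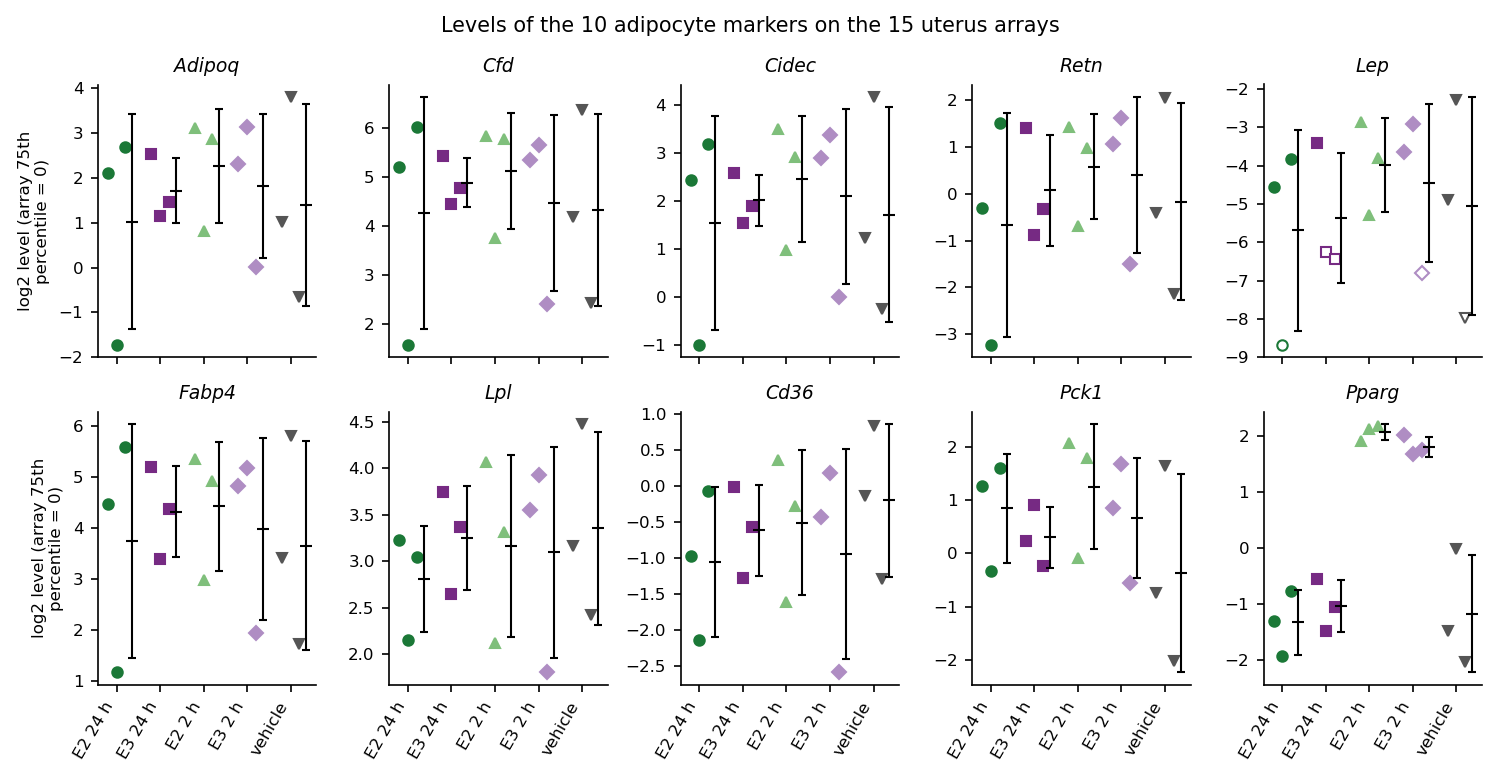
Levels of the 10 adipocyte markers by group, 1 point per array, in replicate order from left to right within each group. The vertical axis is the log2 level with the array's 75th percentile at 0, bars are the mean and SD of 3 arrays, and open points were not well above background. Pparg is separated by time, with the 6 arrays at 2 h between 1.68 and 2.18 and the other 9 at or below -0.0043, whereas the groups overlap for the other 9 genes.

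Cfd and Retn had the same lowest and highest arrays as Adipoq. Cfd (chromosome 10, 79672573 to 79672632) had levels of 5.21, 1.57 and 6.03 in E2 24 h, 5.43, 4.45 and 4.78 in E3 24 h, 5.85, 3.75 and 5.78 in E2 2 h, 5.35, 5.66 and 2.42 in E3 2 h, and 4.19, 6.37 and 2.44 in vehicle. Its lowest and highest arrays differed 27.7-fold. Retn had levels of -0.31, -3.24 and 1.52 in E2 24 h, 1.42, -0.87 and -0.33 in E3 24 h, 1.44, -0.69 and 0.99 in E2 2 h, 1.08, 1.63 and -1.50 in E3 2 h, and -0.41, 2.05 and -2.14 in vehicle. It too was lowest on E2 24 h replicate 2 and highest on vehicle replicate 2, a 39.1-fold range.

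Lep was well above background on 10 of 15 arrays, whereas the other 9 genes were so on all 15. It passed on 2 of 3 arrays in E2 24 h, 1 of 3 in E3 24 h, 3 of 3 in E2 2 h, 2 of 3 in E3 2 h and 2 of 3 in vehicle. Lep was therefore tested only through E2 2 h, the group where its mean level was highest. Its levels were -4.55, -8.69 and -3.84 in E2 24 h, -3.42, -6.25 and -6.45 in E3 24 h, -2.85, -5.29 and -3.79 in E2 2 h, -3.63, -2.91 and -6.81 in E3 2 h, and -4.89, -2.28 and -7.97 in vehicle. The 5 arrays with no signal well above background were also the 5 lowest for Lep, so its 84.5-fold range rests on dim values.

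Cidec and Fabp4, a fatty acid carrier, repeated the pattern. Cidec (chromosome 6, 113585627 to 113585686, minus strand) had levels of 2.44, -0.995 and 3.18 in E2 24 h, 2.59, 1.55 and 1.90 in E3 24 h, 3.48, 0.98 and 2.91 in E2 2 h, 2.90, 3.37 and 0.011 in E3 2 h, and 1.22, 4.16 and -0.24 in vehicle. The used Fabp4 probe had levels of 4.48, 1.18 and 5.58 in E2 24 h, 5.19, 3.40 and 4.38 in E3 24 h, 5.36, 2.98 and 4.93 in E2 2 h, 4.83, 5.17 and 1.94 in E3 2 h, and 3.42, 5.81 and 1.74 in vehicle. The ranges were 35.6-fold for Cidec and 24.8-fold for Fabp4, again from E2 24 h replicate 2 to vehicle replicate 2.

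Fabp4 was read by 3 probes that share no position, which are printed with those of Adipoq and Pparg because they show that the spread was not the property of 1 probe. All lie on build mm7 and are given 5′ to 3′ as on the array; the position of the middle Fabp4 probe spans 730 bases.
Adipoq, chr16:22816125-22816184, plus strand: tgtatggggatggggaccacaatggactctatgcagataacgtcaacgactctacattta
Fabp4, chr3:10212636-10212696, minus strand: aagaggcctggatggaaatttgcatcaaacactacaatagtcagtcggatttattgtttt
Fabp4, chr3:10212718-10213447, minus strand: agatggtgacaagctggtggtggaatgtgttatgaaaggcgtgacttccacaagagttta
Fabp4, chr3:10216627-10216686, minus strand: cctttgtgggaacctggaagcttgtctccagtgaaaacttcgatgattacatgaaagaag
Pparg, chr6:115515909-115515968, plus strand: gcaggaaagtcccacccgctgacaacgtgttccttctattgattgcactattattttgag
The Fabp4 probes had ranges of 24.8-fold, 23.7-fold and 25.8-fold over the 15 arrays, in the order printed. The other Retn probe had a range of 43.4-fold. No annotation of build mm7 was used, so exon and untranslated region are not stated.

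Adipoq had a within-group standard deviation of 1.76 on the log2 scale, against a median of 0.244 over the 20305 genes, and 0.448% of genes had a larger one. The corresponding standard deviations were 1.70 for Cfd, 1.75 for Cidec, 1.77 for Retn, 2.17 for Lep and 1.73 for Fabp4. The spread was also uneven between groups. Adipoq differed 21.3-fold within E2 24 h, 2.62-fold within E3 24 h, 4.95-fold within E2 2 h, 8.66-fold within E3 2 h and 22.0-fold within vehicle. The fits pool the spread over the 5 groups, so intervals for E3 24 h are wide relative to its own arrays. Intervals for E2 24 h and vehicle are narrow relative to theirs, where the standard deviation of Adipoq was 2.40 and 2.25.

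Lpl, Cd36 and Pck1 spread less. Lpl, the lipase that releases fatty acids from circulating triglyceride, had levels of 3.22, 2.15 and 3.04 in E2 24 h, 3.75, 2.65 and 3.36 in E3 24 h, 4.06, 2.12 and 3.31 in E2 2 h, 3.56, 3.93 and 1.80 in E3 2 h, and 3.17, 4.47 and 2.42 in vehicle. Cd36, a fatty acid transporter and scavenger receptor, had levels of -0.97, -2.14 and -0.070 in E2 24 h, -0.01, -1.28 and -0.57 in E3 24 h, 0.36, -1.62 and -0.28 in E2 2 h, -0.44, 0.18 and -2.59 in E3 2 h, and -0.15, 0.82 and -1.29 in vehicle. Both had their lowest array in E3 2 h replicate 3 and their highest in vehicle replicate 2, with ranges of 6.36-fold for Lpl and 10.7-fold for Cd36. Their standard deviations within groups were 0.89 for Lpl and 1.07 for Cd36.

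Pck1, the cytosolic phosphoenolpyruvate carboxykinase that supplies glycerol phosphate for triglyceride, had a range of 17.1-fold. Its levels were 1.26, -0.32 and 1.61 in E2 24 h, 0.24, 0.91 and -0.24 in E3 24 h, 2.07, -0.088 and 1.79 in E2 2 h, 0.85, 1.69 and -0.55 in E3 2 h, and -0.74, 1.66 and -2.02 in vehicle. Vehicle replicate 3 was the lowest array and E2 2 h replicate 1 the highest, and the groups overlapped.

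The same arrays were low or high for nearly all of the genes. In E2 24 h and in vehicle, the array lowest for Adipoq was lowest for all 10 genes; in E3 24 h it was lowest for 8, and in E2 2 h and E3 2 h for 9. Deviations from the group means were therefore set against those of Adipoq, as a description over 15 arrays that share RNA, labelling and scaling. The correlation was 0.993 for Cidec, 0.990 for Cfd, 0.988 for Fabp4, 0.977 for Retn and 0.969 for Lep. Their slopes on Adipoq were 0.98 for Cidec, 0.95 for Cfd, 0.97 for Fabp4, 0.98 for Retn and 1.19 for Lep, where 1 means the same fold from array to array. In each group, the array lowest for Adipoq also had the smallest share of spots well above background. That share was 69.2% in E2 24 h and 63.7% in E3 24 h. At 2 h it was 73.9% with E2 and 73.5% with E3, and in vehicle it was 72.2%. Whether RNA or array quality had a part in the spread was not tested.

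Lpl, Cd36, Pck1 and Pparg had shallower slopes on Adipoq than these 5 genes. Cd36 had a correlation of 0.923 and a slope of 0.56, Pck1 0.908 and 0.63, Lpl 0.895 and 0.45, and Pparg 0.759 and 0.25. Pparg and Adipoq had the same lowest and highest array in E2 24 h, E3 24 h and vehicle. At 2 h Pparg differed only 1.20-fold within E2 and 1.26-fold within E3, where Adipoq differed 4.95-fold and 8.66-fold.

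**Figure D2:**
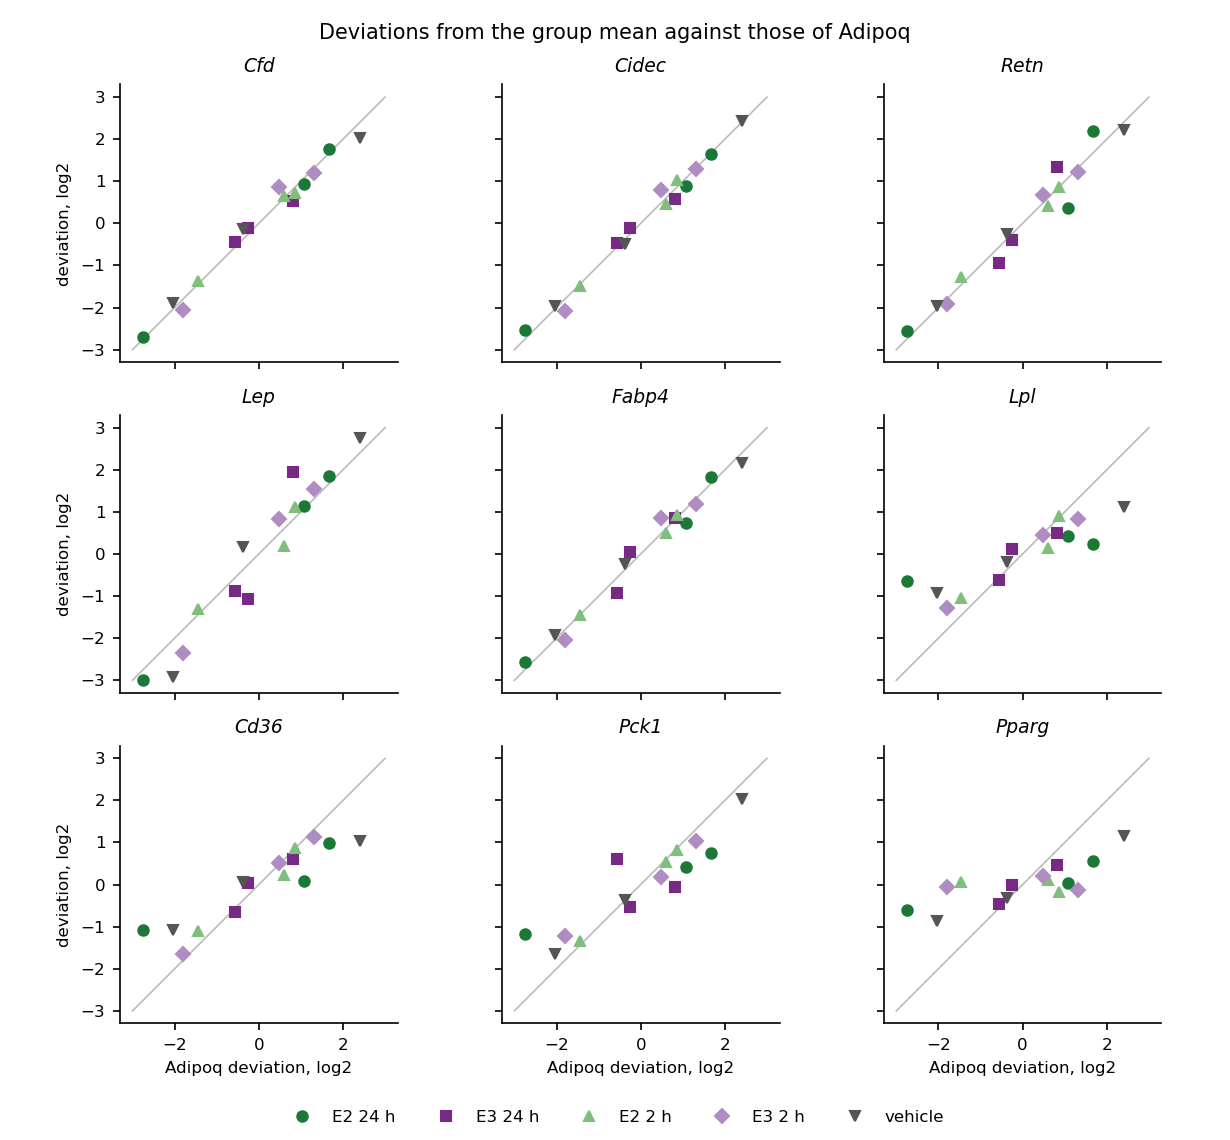
Deviation of each gene from its group mean against that of Adipoq, in log2 units, for the 15 arrays, with the line of equal deviation in grey. Cfd, Cidec, Retn and Fabp4 lie along the line with slopes of 0.95 to 0.98, whereas Lpl, Cd36, Pck1 and Pparg lie along shallower slopes, down to 0.25 for Pparg.

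Genes that were not among the 10 were ranked by their correlation with Adipoq over the 15 arrays. By levels, the nearest were Plin1 (0.986), Car3 (0.984), Slc7a10 (0.981), Orm1 (0.978), Orm2 (0.973), Sucnr1 (0.965), Cyp2e1 (0.963), Serpina3c (0.958), Aqp7 (0.948) and Mrap (0.937). Plin1 encodes perilipin, the coat protein of the adipocyte droplet, Aqp7 a glycerol channel and Car3 a carbonic anhydrase abundant in fat and muscle. By deviations, Plin1 (0.995), Sucnr1 (0.988), Car3 (0.987), Slc7a10 (0.985), Serpina3c (0.981), Orm1 (0.980), Orm2 (0.976), Cyp2e1 (0.975), Slc13a4 (0.973) and Serpina3m (0.971) were nearest. A correlation of deviations over 0.9 was reached by 41 of the 20295 genes that are not among the 10, or 0.202%, and by 7 of the 9 markers other than Adipoq. Orm1 and Orm2 are near copies of each other, as are Serpina3c and Serpina3m, so their probes may read each other's transcripts.

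Markers of other cell types tracked Adipoq less closely, with 1 exception. Of the 14 other adipocyte genes tested, 7 had a correlation of deviations with Adipoq over 0.9, and the correlations ran from 0.142 (Cidea) to 0.995 (Plin1). Their median standard deviation within groups was 0.500. In the lists of brown fat (7 genes), macrophages (9), endothelium (9), smooth muscle (8), epithelium (8), stroma (8), mesothelium (5) and lymphoid tissue (6), 0 genes reached 0.9. The highest in those lists was 0.799, in endothelium. That median was 0.673 for brown fat, 0.501 for lymphoid tissue, 0.390 for macrophages, 0.171 for endothelium, 0.279 for smooth muscle, 0.349 for epithelium, 0.222 for stroma and 0.305 for mesothelium. The exception was Myl1, a fast skeletal muscle myosin light chain, with a correlation of 0.927 and a standard deviation of 1.47; the other 3 skeletal muscle genes tested, Ckm, Acta1 and Tnnt3, had correlations of 0.099, -0.34 and 0.34.

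**Figure D3:**
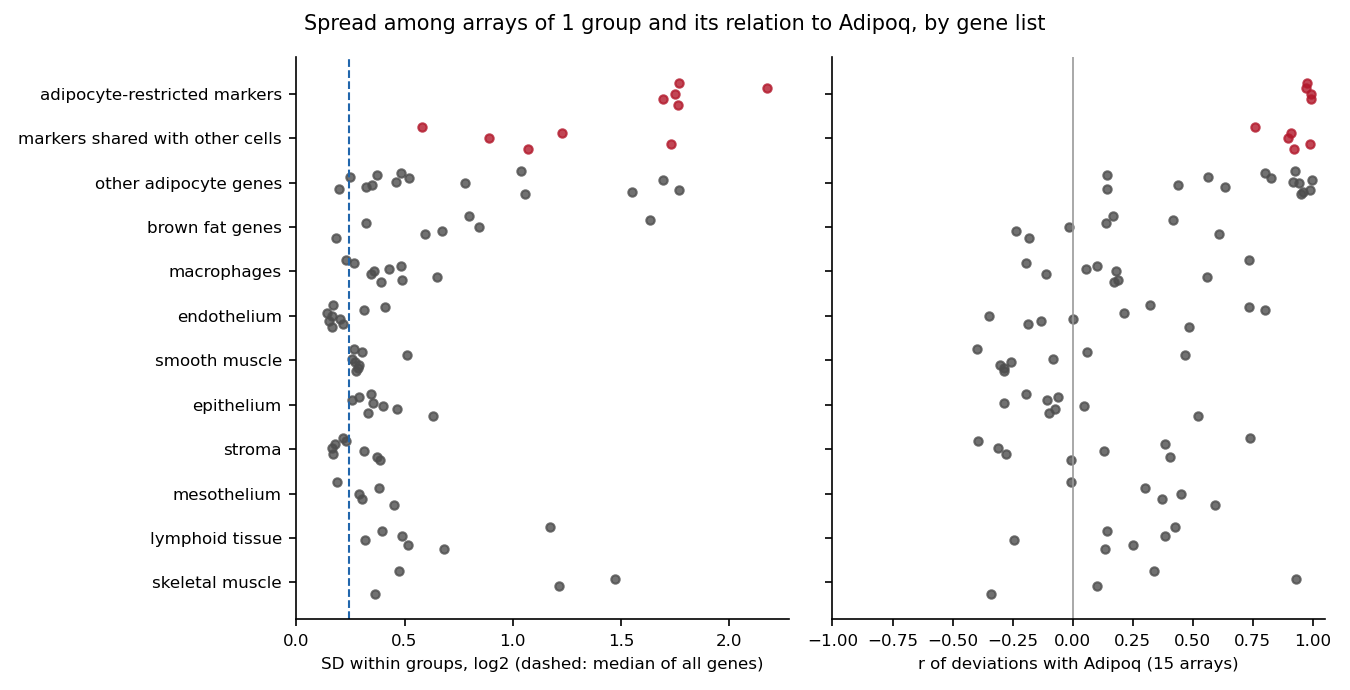
For each gene list, the standard deviation within groups (left, log2 units, with the median of all genes at 0.244 as a dashed line) and the correlation of deviations with Adipoq over 15 arrays (right), 1 point per gene. The adipocyte-restricted markers lie at 1.70 to 2.17 and at correlations of 0.969 to 0.993, apart from the lists of endothelium, smooth muscle, epithelium and stroma.

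In bulk tissue, fewer adipocytes and less RNA per adipocyte cannot be told apart. The share of fat in each piece of tissue was not measured, and its part in these levels was not tested.

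The uteri at 2 h were first set against vehicle, which had a slide of its own and no stated collection time. Hormone, slide and collection time therefore cannot be told apart in any comparison with vehicle. Of the 10 adipocyte genes only Pparg was called at an adjusted p under 0.05. In those comparisons 38.7% of all genes tested were called with E2 and 40.2% with E3. Pparg had levels of 1.91, 2.14 and 2.18 in the E2 2 h uteri and 2.02, 1.68 and 1.76 in the E3 2 h uteri, against -1.48, -0.0043 and -2.03 in the vehicle uteri. All 3 arrays of each oestrogen lay above all 3 vehicle arrays, and the vehicle arrays differed 4.06-fold among themselves. The change was 3.24 ± 0.44 with E2 (standard error, n = 3 arrays per group, 9.47-fold; limma adjusted p = 1.1e-04) and 2.99 ± 0.44 with E3 (7.92-fold; limma adjusted p = 1.9e-04). Leaving out any 1 array gave changes of 2.82 to 3.83 with E2 and 2.56 to 3.57 with E3, in each case lowest without vehicle replicate 3 and highest without vehicle replicate 2. Both comparisons use the same vehicle arrays.

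The other 9 genes were not called in these comparisons. Adipoq had a change of 0.87 ± 1.30 with E2 (95% interval -1.96 to 3.71; limma adjusted p = 0.63) and 0.43 ± 1.30 with E3 (-2.41 to 3.26; limma adjusted p = 0.83). Fabp4 had 0.77 ± 1.28 with E2 (-2.01 to 3.55) and 0.32 ± 1.28 with E3 (-2.46 to 3.11). These intervals include rises as large as that of Pparg, so these data cannot tell a rise of that size from none. Cd36 had -0.31 ± 0.79 with E2 and -0.75 ± 0.79 with E3, and Lpl had -0.19 ± 0.66 with E2 and -0.26 ± 0.66 with E3. Pck1 had the largest estimate after Pparg, 1.63 ± 0.91 with E2 (-0.35 to 3.61; limma adjusted p = 0.18) and 1.03 ± 0.91 with E3 (-0.94 to 3.01; limma adjusted p = 0.39). Pck1 was called with E2 without vehicle replicate 2, at 2.64 (limma adjusted p = 0.029).

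The estimates for Adipoq moved with single arrays. With E2 at 2 h its change was 2.08 without vehicle replicate 2 and -0.15 without vehicle replicate 3, and with E3 at 2 h it was 1.63 without vehicle replicate 2 and -0.60 without vehicle replicate 3. With E2 at 24 h it was 1.00 without E2 24 h replicate 2, against -0.38 ± 1.30 with all arrays.

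At 24 h, 0 of the 10 genes were called against vehicle with either oestrogen by limma. Of all genes tested, 43.4% were called with E2 and 20.4% with E3, and at an unadjusted p under 0.05 the count among the 10 was also 0 for each. Pparg had levels of -1.29, -1.92 and -0.75 in E2 24 h and -0.56, -1.48 and -1.05 in E3 24 h, which overlapped the vehicle levels given above. Its change was -0.15 ± 0.44 with E2 (95% interval -1.10 to 0.80) and 0.14 ± 0.44 with E3 (-0.81 to 1.09). Adipoq had 0.32 ± 1.30 with E3 (-2.52 to 3.16). Pck1 had 1.22 ± 0.91 with E2 (-0.76 to 3.20) and 0.67 ± 0.91 with E3 (-1.31 to 2.65), and Cd36 had -0.86 ± 0.79 with E2 (-2.58 to 0.87) and -0.42 ± 0.79 with E3 (-2.14 to 1.31).

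Between times, Pparg fell at 24 h relative to 2 h with each oestrogen, and it was the 1 gene of the 10 called in each of these comparisons, in which 52.4% of all genes were called with E2 and 49.7% with E3. The change was -3.40 ± 0.44 for E2 24 h against E2 2 h (limma adjusted p = 4.5e-05) and -2.84 ± 0.44 for E3 24 h against E3 2 h (limma adjusted p = 2.4e-04). All 3 arrays at 24 h lay below all 3 at 2 h in both. On slide 3, which held 1 E2 24 h and 2 E2 2 h arrays, Pparg was at -1.92 in the E2 24 h array, against a mean of 2.16 in the E2 2 h arrays. Adipoq there was at -1.73 in the E2 24 h array, against a mean of 1.84 in the E2 2 h arrays. No slide held both E3 2 h and E3 24 h arrays, so the E3 difference has no such comparison within a slide. When slide entered as a fixed block, without the vehicle arrays, the E3 difference of Pparg was -2.15 and was not called (limma adjusted p = 0.12). That fit called 134 of all 20305 genes.

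E2 and E3 were given at the same dose. Of the 10 genes, 0 were called between them by limma at 2 h or at 24 h, where 0% and 15.7% of all genes were called. At either time 0 of the 10 had an unadjusted p under 0.05. Pparg differed by 0.26 ± 0.44 at 2 h (95% interval -0.69 to 1.21) and by -0.29 ± 0.44 at 24 h (-1.24 to 0.66), each as E2 minus E3. Adipoq differed by 0.45 ± 1.30 at 2 h (-2.39 to 3.28) and by -0.70 ± 1.30 at 24 h (-3.53 to 2.14). The difference of these differences was called for 0 of the 10 by limma, with 6.22% of all genes called and 0 of the 10 at an unadjusted p under 0.05; for Pparg it was -0.55 ± 0.62 (-1.89 to 0.79). These intervals leave room for differences of the sizes given, and equal action was not shown. At neither time did a slide hold arrays of both oestrogens. With slide as a fixed block, vehicle left out, 0 of 20305 genes were called between E2 and E3 at 2 h and 0 at 24 h. For the difference of these differences it was also 0.

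Because the spread was shared, the model was also fitted with a measure of adipocyte RNA as a covariate, an alternative chosen after seeing the data. The mean level of the 14 other adipocyte genes was tried before the level of Plin1 alone, and the answers differ. With Plin1 the standard error of Adipoq at E2 2 h fell to 0.158 and its change was 0.19 (limma adjusted p = 0.36). Plin1 had the highest correlation of deviations with Adipoq, 0.995, among the genes ranked above, so a smaller standard error was built in. With the mean of the 14 genes, Plin1 among them, the change of Adipoq was 1.15 and was called (limma adjusted p = 0.0063). Of those 14 genes, Gpam, Slc2a4 and Thrsp were themselves called lower with E2 at 2 h, by -1.01, -1.03 and -1.04. Plin1 had a change of 0.66 ± 1.25 there (limma adjusted p = 0.71), and 0.50 with E3. With the mean, Cfd (1.06), Cidec (1.02), Fabp4 (1.04), Lep (1.40), Retn (1.02) and Pck1 (1.81) were called too, which makes 8 genes with Pparg. With Plin1 only Pparg was. Since Lep was tested only through E2 2 h, its call there follows in part from that choice and lends no support. Whether Adipoq and its companions were called at 2 h with E2 therefore depends on the covariate, and in the fit without one they were not.

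The shares of all genes called were 38.8% with the mean and 39.4% with Plin1 for E2 2 h, 40.5% and 41.2% for E3 2 h, 43.6% and 44% for E2 24 h, and 21.5% and 21.9% for E3 24 h, each against vehicle. For 24 h against 2 h they were 52.9% and 52.6% with E2, and 48.5% and 50.2% with E3.

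Both covariate fits gave some of the same calls, but they are not independent, because Plin1 is itself among the genes of the mean. Pparg remained called at 2 h, at 3.07 with E2 and 2.86 with E3 under Plin1, and at 24 h against 2 h with each oestrogen. In E2 24 h against vehicle, Pck1 was called higher (1.21 with Plin1 and 1.31 with the mean) and Cd36 lower (-0.86 and -0.78). Adipoq was called lower in E2 24 h against E2 2 h (-0.58 with Plin1 and -1.39 with the mean) and Lep in E3 24 h against E3 2 h (-1.05 and -2.11). For Lep the size is not reliable, since it was not well above background on 2 of 3 E3 24 h arrays and 1 of 3 E3 2 h arrays. Cd36 was called lower with E3 at 2 h under Plin1 (-1.04) and with E3 at 24 h under the mean (-0.89). With the mean, 7 of the 10 genes were called in E2 24 h against E2 2 h, among them Lep, which was tested only through E2 2 h. In E3 24 h against E3 2 h the count was 5 of 10, close to the 48.5% of all genes.

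**Figure D4:**
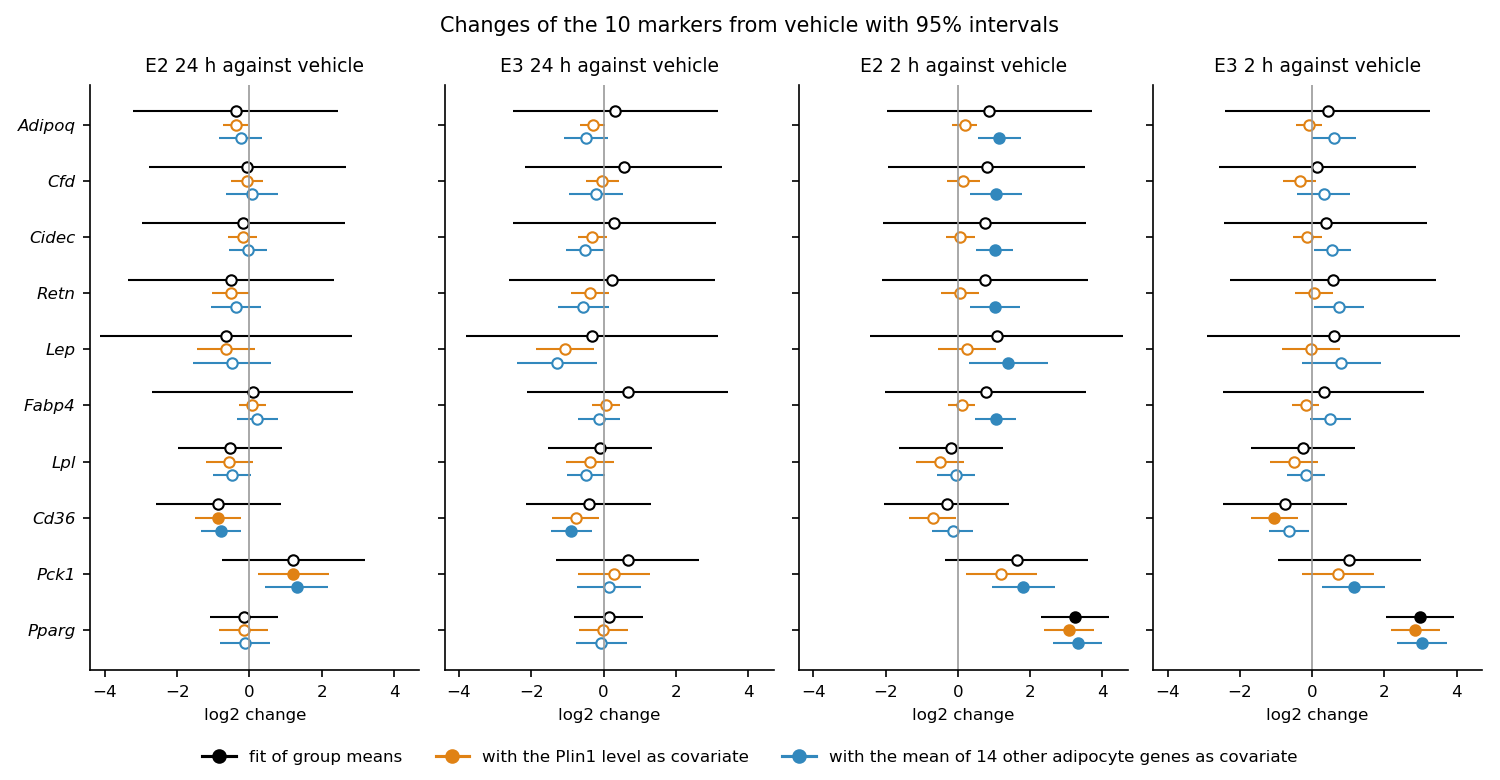
Log2 change from vehicle of the 10 genes with its 95% interval in 4 comparisons, from the fit of group means (black), with the level of Plin1 as a covariate (orange) and with the mean of 14 other adipocyte genes as a covariate (blue), with filled points called. Pparg is filled in all fits at 2 h, and the adipocyte-restricted genes with E2 at 2 h are filled only with the mean of the 14 genes, where Adipoq is at 1.15 against 0.19 with Plin1.

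Among 15 PPARG partners and adipogenic transcription factors, 4 rose and 3 fell at 2 h with each oestrogen, near the 38.7% and 40.2% of all genes called in either direction. Their median was -0.01 with E2 and -0.14 with E3, where the median of all genes was -0.14 and -0.16. Cebpb, which acts early in adipocyte formation, rose by 3.39 ± 0.22 with E2 (limma adjusted p = 4.9e-07) and by 3.39 with E3. Cebpd, its early partner, rose by 1.44 with E2 and 1.92 with E3, and Cebpa, which works beside PPARG in the mature adipocyte, rose by 1.45 and 1.67. Klf15, a Krüppel-like factor of adipocytes and muscle, fell by 2.38 with E2 and by 2.13 with E3. At 24 h against vehicle, 3 of the 15 were called lower with E2 and 0 higher, namely Klf15 (-2.13), Nr1h3 (-1.12), an oxysterol receptor, and Ebf1 (-0.97). With E3 only Klf15 was, at -0.78. Of all genes, 43.4% were called in either direction at 24 h with E2, a larger share than in this list, and 20.4% with E3. Cebpa was at -0.45 with E2 and 0.03 with E3 at 24 h, and Cebpb at -0.18 and 0.23, and these were not called. All of these genes had deviations that correlated with those of Adipoq at 0.764 or below.

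The lists of lipid uptake and storage held called genes of both signs. Of 15 lipid droplet and lipolysis genes, the counts at 2 h were 4 higher and 4 lower with E2 (median -0.10) and 3 higher and 3 lower with E3 (median 0.08), against 38.7% of all genes called with E2 and 40.2% with E3. Plin5, a droplet coat protein of oxidative tissues, rose by 2.37 with E2 and 2.34 with E3, whereas Plin2, the coat protein found in most cells, fell by 0.81 and by 0.76. Of 9 genes of glyceroneogenesis and triglyceride synthesis, 1 was higher and 3 were lower with E2, and 1 was higher and 4 were lower with E3. Agpat2, an acyltransferase, rose by 1.71 with E2 and 1.80 with E3, and Pck2, the mitochondrial counterpart of Pck1, fell by 1.13 and by 1.15. At 24 h Pck2 rose by 1.06 with E2 and 1.14 with E3. Of 11 genes of lipoprotein lipid uptake, 2 rose at 2 h with each oestrogen, among them Fabp3, a fatty acid carrier of muscle, by 1.80 with E2 and 1.78 with E3. At 24 h 4 of the 11 rose with E2 and 2 with E3. Only rises are counted for this list, so its counts are not comparable with the shares of all genes called in either direction. At 24 h those shares were 43.4% with E2 and 20.4% with E3.

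Receptors for the adipocyte hormones were also measured. Of 7 genes of adipokine and insulin reception, 5 were called with E2 at 24 h, 2 higher and 3 lower, and 3 with E3, 1 higher and 2 lower, against 43.4% of all genes called with E2 and 20.4% with E3. Lepr, the leptin receptor, fell by 2.66 with E2 (limma adjusted p = 1.4e-05) and by 0.95 with E3, and differed by -1.71 between E2 and E3 (limma adjusted p = 7.2e-04). No slide held both E2 24 h and E3 24 h arrays. With slide as a fixed block, vehicle left out, 0 of 20305 genes were called between these groups. Insr, the insulin receptor, fell by 1.24 with E2 and by 0.84 with E3, and Cdh13, which binds adiponectin, rose by 0.62 and 0.73. Of 8 genes of the alternative complement pathway, in which adipsin acts, 1 rose and 1 fell with E2 at 24 h and 3 rose with E3. Cfi, the protease that inactivates complement C3b, rose by 2.71 with E2 and 2.43 with E3.

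Pparg was the 1 gene of the 10 called in the fit of all 15 arrays without a covariate, and those of its windows that hold the motif AGGTCA are printed. The RefSeq table (build GRCm38.p6) held 11 windows of 250 bases before a start site for 8 of the 10 genes, 3 of them for Pparg. Several motifs were searched on both strands. Capitals mark AGGTCA, the core sequence recognised by many nuclear receptors. It occurred in 2 of the 3 Pparg windows and in 1 window of Cd36, against 14% of all 32851 windows, and in 0 windows of Adipoq, Cfd, Cidec, Lep, Pck1 and Retn. A match is a description and not a binding site. The remaining Pparg window, chr6:115421816-115422065, had no match and is not printed.
Pparg, chr6:115360894-115361143, plus strand: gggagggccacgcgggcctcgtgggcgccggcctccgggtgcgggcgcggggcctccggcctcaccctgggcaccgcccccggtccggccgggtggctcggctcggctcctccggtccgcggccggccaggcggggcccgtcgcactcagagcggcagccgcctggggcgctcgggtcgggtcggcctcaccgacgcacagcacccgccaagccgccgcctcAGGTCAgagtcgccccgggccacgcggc
Pparg, chr6:115362099-115362348, plus strand: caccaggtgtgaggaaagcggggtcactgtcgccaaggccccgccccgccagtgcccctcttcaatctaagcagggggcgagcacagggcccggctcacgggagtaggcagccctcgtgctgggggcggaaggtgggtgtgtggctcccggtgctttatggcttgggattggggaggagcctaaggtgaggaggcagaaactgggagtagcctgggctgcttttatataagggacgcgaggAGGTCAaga
The oestrogen response palindrome GGTCANNNTGACC was in 0 of the 11 windows and in 0.0639% of all windows. A direct repeat of AGGTCA with 1 base between was absent from the 11 windows too, and was in 0.0335% of all windows. TATAAA, on either strand, was in the second printed Pparg window alone among the 11, and in 12.4% of all windows. The array has 1 Pparg probe, so transcripts from these start sites are not separated.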

How the data were processed

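Per the file headers, the authors deposited for each array the intensity processed by Agilent Feature Extraction 9.5.3.1, background-subtracted and detrended within the array, with surrogates for low values and no normalization between arrays. Probe positions are on mm7. The members and gene lists were chosen with earlier results of these data known. The genes named are the 10 markers, up to 4 genes of a list with the largest change in the comparison described (called ones before others), and the 10 genes nearest to Adipoq by levels and by deviations; Hoxa11 and the covariate genes were added.

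Of 45018 spots, 43379 were not controls. Repeated probes were averaged, giving 41174 probes, of which 53 lacked a value on some array and were dropped. Each array's log2 intensity was reduced by its own 75th percentile. The brightest probe stood for a gene, tested where a group had it well above background in all 3 of its arrays. limma 3.58.1 in R 4.3.3 fitted 1 mean per group to all 15 arrays, with Benjamini-Hochberg adjustment over 20305 genes in each comparison, called at an adjusted p under 0.05; intervals are at 95%. The fit was tested on simulated data. The series value table equalled the processed signals and gave no alternative. The alternatives are in the closing section. One gene that the naming rule picked is not reported here.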

Additional observations from a re-analysis of the deposited data

Results flagged for a closer look

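In the fit without a covariate, Pparg was the 1 gene of the 10 called between times with each oestrogen, by a test of the difference itself. The difference was -3.40 for E2 24 h against E2 2 h (limma adjusted p = 4.5e-05) and -2.84 for E3 24 h against E3 2 h (limma adjusted p = 2.4e-04). All 3 arrays at 24 h lay below all 3 at 2 h in both. No slide held arrays of both E3 groups. With slide as a fixed block the E3 difference was not called (limma adjusted p = 0.12). No group had enough arrays for a test of outlying arrays.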

How the results depend on the processing

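The counts of called genes among the 10 were 1 in each 2 h comparison with vehicle, 1 in each comparison of 24 h with 2 h and 0 in the other 5. They were the same under quantile normalization, median scaling, normexp background, the filter on dim probes dropped or made to hold for all arrays (which leaves out Lep), the mean of a gene's probes, fits to only the groups compared, robust trended variances, array weights, an adjusted p under 0.01, a 2-fold minimum, slide as a random block, scan day as a fixed block and scan day 1 alone. Leaving out each array gave 1 to 2 in E2 2 h against vehicle, 2 without vehicle replicate 2, and the same counts elsewhere. With slide as a fixed block, vehicle left out, E3 24 h against E3 2 h had 0; that block cannot be fitted with vehicle, which had a slide of its own. With the level of Plin1 as a covariate the count was 2 in E3 2 h against vehicle, 2 in E2 24 h against vehicle, 2 in E2 24 h against E2 2 h and 2 in E3 24 h against E3 2 h. With the mean of 14 adipocyte genes it was 8 in E2 2 h, 2 in E3 2 h, 2 in E2 24 h and 1 in E3 24 h, each against vehicle, 7 in E2 24 h against E2 2 h and 5 in E3 24 h against E3 2 h. Both covariates and the fixed slide block were added after seeing the data, and the cause of the difference between the covariates was not tested. With replicate number as a block the counts were again 1 in those 4 comparisons and 0 in the other 5. Same-numbered arrays had deviations that correlated at -0.22 to 0.21, with 7 of 30 pairs over 0.1. No pairing by number was seen, and these correlations cannot exclude one. Of 2966 values of single genes under alternatives, 0 called values changed sign, 228 that were called in neither fit did, 27 became called and 1 ceased to be. The counts of 8 and 7 include Lep, which was tested only through E2 2 h. The 3 arrays per group, and for Lep the background, limit what these data can show.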
